A study of Mus musculus with 15 samples.

Results

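The Wnt ligands, their receptors and their secreted inhibitors were followed in mouse embryonic fibroblasts that lacked the histone deacetylase Hdac1, had little of its close relative Hdac2, or both. The set held 40 genes out of 18193 with a probe set of their own on the array: 12 Wnt ligands, 15 receptors and co-receptors, 9 secreted inhibitors, 3 R-spondins and the target gene Axin2. The members were a fixed list of symbols, and each gene was represented by the probe set with the highest mean over the 15 arrays. All cells were primary male fibroblasts, and each group had 3 arrays. KO/Kd cells carried Hdac1 fl/fl alleles, a retroviral micro-RNA against Hdac2 and retroviral Cre-ERT2, the recombinase form that tamoxifen activates, and received tamoxifen (200 nM). KO cells were the same with a scrambled micro-RNA and tamoxifen. Kd cells were Hdac1 fl/fl with the same Cre-ERT2 and micro-RNA against Hdac2, and received ethanol. The +/+ cells had intact Hdac1 alleles and received tamoxifen, and the sources used here do not name any virus in them. Control cells had Hdac1 fl/fl alleles, Cre-ERT2, the scrambled micro-RNA and ethanol. Control cells thus carried both retroviruses too, and Cre-ERT2 and the micro-RNA were virus-borne in all fl/fl groups.

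Wnt proteins are secreted, lipid-modified signals that bind Frizzled receptors together with Lrp5 or Lrp6, which stabilises β-catenin, or with Ror1, Ror2 or Ryk, which feed branches that do not need β-catenin. Secreted frizzled-related proteins (Sfrp genes and Frzb) and Wif1 bind Wnts outside the cell, Dkk proteins occupy Lrp5 and Lrp6, and R-spondins raise the amount of receptor at the surface. Axin2 encodes a scaffold of the β-catenin destruction complex and is itself switched on by β-catenin. In fibroblasts and other mesenchymal cells these genes pattern limbs, skeleton and skin.

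The targeted genes were low where the labels say so: Hdac1 was at 156 ± 48.6 in KO/Kd and 161 ± 19.8 in KO cells, against 3557 ± 101 in control cells, and Hdac2 was at 1025 ± 9.88 in KO/Kd and 958 ± 62.1 in Kd cells, against 7051 ± 449 in control cells (mean intensity ± SD, n = 3). Of 12 fibroblast markers 11 exceeded the 40th percentile of intensity on all 15 arrays. In KO/Kd cells 8 of the 12 rose and 2 fell against control (66.7% and 16.7%), while 46.2% of all genes rose and 19.3% fell. S100a4 was at 948 ± 180.2 in KO/Kd and 20642 ± 267 in control cells. Array medians ran from 24.1 to 30.7 and were highest in KO/Kd cells. Fold changes below are differences of log2(intensity + 16), which understate changes of dim genes. They come from limma fitted to 13375 genes, and "rose", "fell" and "changed" mean an adjusted p under 0.05. The median gene differed by 0.16 between KO/Kd and control cells, and by -0.02 after quantile normalization. Intensities are not comparable between genes, and in bulk RNA fewer cells of a type and less RNA per cell cannot be told apart. The labels do not state whether replicates were independent cultures, so p-values reflect only how far these arrays differ, possibly for technical reasons.

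A gene was tested when it exceeded the 40th percentile (18.8 to 22.5 in intensity, depending on the array) on at least 3 arrays. This held for 37 of the 40 members. Wnt2b, Fzd9 and Dkk1 were not tested; each was the dimmest of its role. Wnt2b was at 16, 15.7 and 15.7 in KO/Kd, 12, 13.5 and 15 in KO, 13.7, 13.3 and 13.1 in Kd, 13.3, 12 and 12.9 in +/+ and 13.1, 13.1 and 13.6 in control cells. Fzd9 was at 20.8, 22.1 and 19.4 in KO/Kd, 13.7, 16 and 17.5 in KO, 15.2, 15.8 and 17.2 in Kd, 16.7, 15.7 and 14.5 in +/+ and 13.8, 16.4 and 13.6 in control cells. Dkk1 was at 17, 14.4 and 21.2 in KO/Kd, 15.1, 16.8 and 17.1 in KO, 17.2, 16.4 and 20.6 in Kd, 17, 14.8 and 16 in +/+ and 14.9, 16.8 and 17.6 in control cells. These levels were close to or below the percentile in every group. Wnt4, Sfrp2 and Dkk2 passed only through their KO/Kd arrays, so a difference of these genes between KO/Kd cells and the other groups was built into their passing. In the paragraphs on each role their levels are given without a test. Counts are also given over the 34 other tested members. Receptors were the most widely detected role, with 12 of 15 above the percentile on all 15 arrays, against 4 of 12 ligands, 3 of 9 inhibitors, 1 of 3 R-spondins and Axin2.

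KO/Kd cells differed from every other group by higher Wnt5b and Wnt9a among the ligands, Sfrp1 and Dkk3 among the inhibitors, the R-spondin Rspo3 and the receptor Fzd1. Against control, 22 of 37 tested members rose and 2 fell (59.5% and 5.41%), while 46.2% of all genes rose and 19.3% fell. The share that changed in either direction, 64.9%, was near that of all genes, 65.5%. Without the 3 genes that passed only through KO/Kd arrays, 19 of 34 rose and 2 fell (55.9% and 5.88%; 61.8% changed), with a median of 0.42. After quantile normalization 19 of the 37 rose and 6 fell, while 32.3% of all genes rose and 33.4% fell. With arrays centred on their medians 21 rose and 6 fell, and 35.1% and 31.2% of all genes. KO cells showed 4 higher and 4 lower members against control, while 19.6% of all genes rose and 4.66% fell (24.2% changed). Kd cells showed 10 higher and 2 lower (7.55% and 3.04% of all genes, 10.6% changed). The +/+ cells showed 8 higher and 3 lower (21.5% and 6.94%, 28.5% changed). After quantile normalization the splits were 4 and 8 in KO (14% and 14.5% of all genes), 9 and 4 in Kd (8.33% and 7.3%), and 6 and 8 in +/+ cells (14.5% and 15%). These comparisons share the control arrays. Judged by the chosen probe sets, 6 members changed in none of the 9 comparisons made: the ligands Wnt7b and Wnt10b, the receptors Fzd3, Fzd10 and Ror2, and the inhibitor Sfrp5. The share of all genes that changed in none was not computed. Over all 15 arrays Wnt7b lay at 16.9 to 24.4, Wnt10b at 16.5 to 24.7, Fzd3 at 72.6 to 235, Fzd10 at 19.1 to 28.9 and Sfrp5 at 19.2 to 27.5. The chosen Fzd3 probe set differed from control by 0.54 in +/+ and 0.45 in Kd cells. Other Fzd3 probe sets differed by 0.84, 0.64 and 0.56 in +/+ and by 0.42, 0.63 and 0.37 in Kd cells. The dimmest differed by 0.11 and 0.05 in +/+ and by -0.06 and 0.02 in Kd cells.

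**Figure D1:**
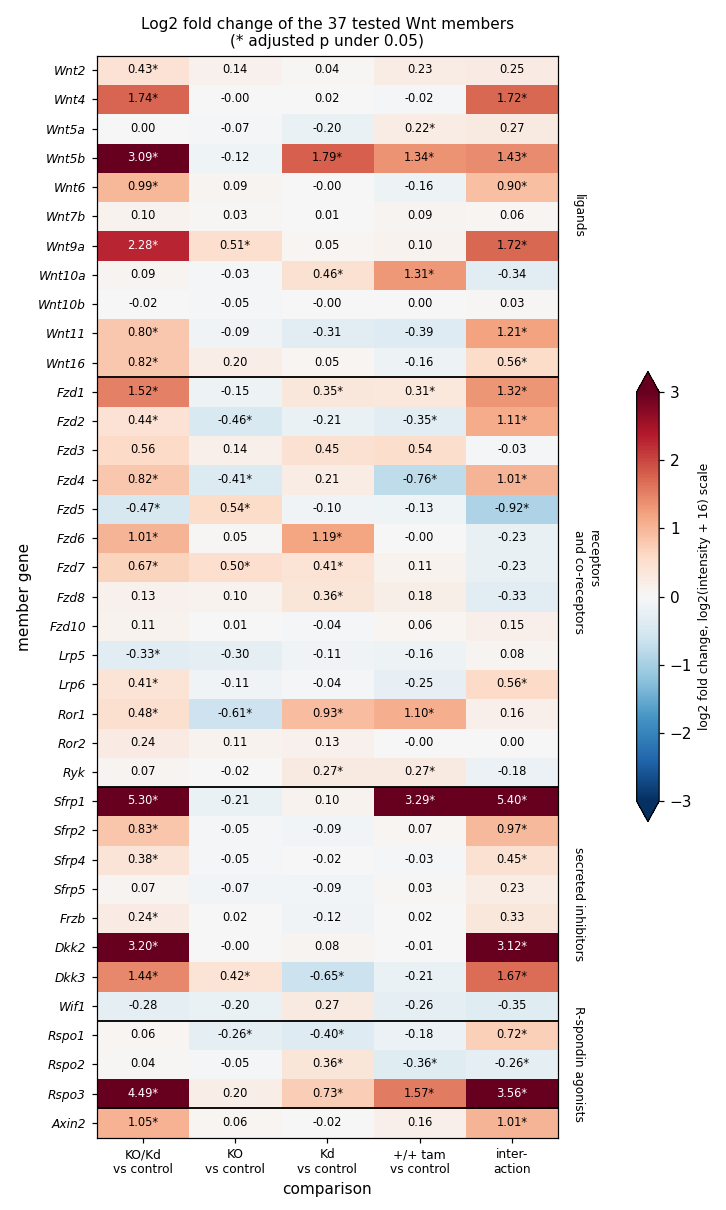
Log2 fold changes (colour and printed value, log2(intensity + 16) scale) of the 37 tested members, ordered by role, in KO/Kd, KO, Kd and +/+ cells against control and in the interaction of deletion and knockdown. Sfrp1 (5.30), Rspo3 (4.49) and Wnt5b (3.09) stand out in the KO/Kd column, Wnt4, Sfrp2 and Dkk2 passed the filter only through it, and the KO column stays between -0.61 and 0.54.

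In total 8 members were at least 2-fold higher in KO/Kd cells than in control, Kd and KO cells alike: Wnt4, Wnt5b, Wnt9a, Fzd1, Sfrp1, Dkk2, Dkk3 and Rspo3. Wnt4 and Dkk2 passed the filter only through KO/Kd arrays, so a difference in this direction was built into their passing. The share of all genes that met this rule was not computed. Promoter sequence from RefSeq (GRCm38.p6, 250 bases before to 50 after a start) was held for 26 of the 40 members, of which Wnt4, Wnt5b, Wnt9a, Fzd1 and Dkk2 belonged to these 8. The 4 sequences below show the start regions of genes on this list, which did not all move alike in KO and Kd cells. Each ends just before the outermost annotated start of the gene. Wnt5b is left out because its listed starts lie inside that limit. Capitals mark 3 short motifs on either strand: the GC box GGGCGG bound by Sp1-type factors, the TATA box TATAAA, and the TCF/LEF core CTTTGA or CTTTGT.
Wnt4, chr4:137277385-137277634, plus strand: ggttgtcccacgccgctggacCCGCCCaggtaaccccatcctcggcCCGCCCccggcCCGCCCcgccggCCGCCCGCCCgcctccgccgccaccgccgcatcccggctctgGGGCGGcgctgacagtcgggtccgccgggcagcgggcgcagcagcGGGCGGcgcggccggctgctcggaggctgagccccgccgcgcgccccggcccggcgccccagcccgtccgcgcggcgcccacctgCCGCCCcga
Wnt9a, chr11:59306680-59306848, plus strand: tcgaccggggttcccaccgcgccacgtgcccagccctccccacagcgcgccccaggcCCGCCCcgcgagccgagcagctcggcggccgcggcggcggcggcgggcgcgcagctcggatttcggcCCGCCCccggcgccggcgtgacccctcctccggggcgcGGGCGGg
Dkk2, chr3:132085042-132085265, plus strand: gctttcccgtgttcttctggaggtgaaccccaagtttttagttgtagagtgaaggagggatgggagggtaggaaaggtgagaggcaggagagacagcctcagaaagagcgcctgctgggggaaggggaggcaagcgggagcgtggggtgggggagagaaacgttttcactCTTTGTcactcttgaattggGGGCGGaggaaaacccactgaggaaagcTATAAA
Fzd1, chr5:4758217-4758466, minus strand: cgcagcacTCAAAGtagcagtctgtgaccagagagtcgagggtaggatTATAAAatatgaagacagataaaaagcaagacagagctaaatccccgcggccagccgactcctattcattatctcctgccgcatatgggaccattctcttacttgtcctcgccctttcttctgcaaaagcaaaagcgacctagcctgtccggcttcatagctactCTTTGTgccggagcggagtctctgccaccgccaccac
The stretches of Wnt4 and Wnt9a are dense in C and G, with 8 and 3 GC boxes and no match to the other motifs, whereas Dkk2 holds 1 GC box, 1 TATA box and 1 TCF/LEF core, and Fzd1 holds no GC box, 1 TATA box and 2 TCF/LEF cores. Over the whole 300-base windows, a GC box stood in 22 of 29 member promoters (75.9%) and in 35.7% of the 32851 promoters of the table. A TATA box stood in 20.7% and 13.6%, and a TCF/LEF core in 31% and 31.2%. The median number of CpG pairs was 27 in members and 7 in all promoters. A match of letters is no evidence of binding.

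Among 11 tested ligands 7 rose in KO/Kd cells against control and 0 fell, or 6 and 0 of 10 without Wnt4, while 46.2% of all genes rose and 19.3% fell. Wnt5b, a ligand known from cartilage and fat cell development, had intensities of 529, 491 and 552 in KO/Kd cells. It was at 43.5, 38.2 and 44.9 in KO, 207, 191 and 209 in Kd and 155, 128 and 151 in +/+ cells, against 44.8, 50.5 and 46.5 in control cells. KO/Kd arrays lay above all others and Kd and +/+ arrays above KO and control, with a log2 fold change of 3.09 ± 0.08 in KO/Kd cells (SE; limma adjusted p = 1.5e-14), 1.79 in Kd and 1.34 in +/+ cells. In KO cells the difference was -0.12 (adjusted p = 0.293), against -0.26 (adjusted p = 0.0352) after quantile normalization. A further Wnt5b probe set differed by 2.33 in KO/Kd, 0.28 in KO, 1.17 in Kd and 0.73 in +/+ cells, so the KO values had opposite signs. Wnt9a, expressed in forming joints, was at 161, 139 and 145 in KO/Kd and 30.7, 27.4 and 39 in KO cells, with 17.1, 22.5 and 17.8 in Kd and 22.8, 20.3 and 17.9 in +/+ cells, against 14.2, 19.2 and 20.3 in control cells. It rose by 2.28 ± 0.10 in KO/Kd (adjusted p = 8.39e-12) and by 0.51 ± 0.10 in KO cells (adjusted p = 0.00148), while Kd and +/+ arrays overlapped control. Wnt4, a ligand of kidney and gonad development, was at 110.1, 88.8 and 98 in KO/Kd cells and at 15.9 to 21.4 on the 12 arrays of the other groups. It exceeded the percentile on all 3 KO/Kd arrays and on 1 Kd array.

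Wnt6, Wnt11 and Wnt16 were also higher in KO/Kd cells, by smaller amounts. Wnt6, an epithelial ligand in many embryonic tissues, was at 65.5, 127 and 117 in KO/Kd cells and at 34.5 to 47.7 elsewhere (log2 fold change against control 0.99 ± 0.14, adjusted p = 1.46e-05). Wnt11, a ligand of the branches independent of β-catenin, was at 46.4, 54.8 and 99.7 in KO/Kd, 26.9, 25.3 and 28.5 in KO, 19.9, 20 and 23.1 in Kd and 19.4, 18 and 19.2 in +/+ cells, against 37.2, 28.9 and 24.1 in control cells. It rose by 0.80 ± 0.16 (adjusted p = 0.00034) with no overlap between KO/Kd and the other arrays, and KO/Kd replicate 3 was the highest. Wnt16, known for limiting bone loss, was at 58.3, 58.2 and 86.6 in KO/Kd cells and 19.4 to 40.8 elsewhere (0.82 ± 0.13, adjusted p = 2.58e-05). Wnt2, at 22.9, 31.4 and 22.5 in KO/Kd, 13.2 to 22.1 in KO, Kd and +/+, and 17.5, 15.4 and 11.7 in control cells, rose by 0.43 ± 0.11 (adjusted p = 0.00236), with control arrays below the 40th percentile.

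Wnt10a and Wnt5a followed another pattern, with their highest levels in +/+ cells. Wnt10a, a ligand of skin and tooth development, was at 571, 740.1 and 512 in KO/Kd, 526, 553 and 570.3 in KO and 879.9, 787 and 691 in Kd cells. It was at 1437, 1469 and 1351 in +/+ cells, against 582, 559 and 549 in control cells. The +/+ arrays lay above all others (1.31 ± 0.11 against control, adjusted p = 2.48e-07), and Kd cells rose by 0.46 ± 0.11 (adjusted p = 0.0112; the call ended without Kd replicate 1 (adjusted p = 0.0679)). KO cells were lower than +/+ cells, which shared the tamoxifen (log2 fold change -1.34 ± 0.11, adjusted p = 1.58e-07). Wnt5a, the prototype ligand of Ror receptors, was at 1439, 1329 and 1566 in KO/Kd, 1322, 1395 and 1403 in KO, 1345, 1197 and 1209 in Kd and 1689, 1706 and 1622 in +/+ cells, against 1489, 1498 and 1329 in control cells. KO/Kd and control arrays overlapped (difference 0, 95% interval -0.16 to 0.16), although quantile normalization gave -0.20 (adjusted p = 0.0186). The rise in +/+ cells (0.22, adjusted p = 0.0418) ended after quantile normalization and when any of the 6 arrays was left out, without +/+ replicate 1, +/+ replicate 2, +/+ replicate 3, control replicate 1, control replicate 2 and control replicate 3 (adjusted p = 0.108, 0.118, 0.0564, 0.0558, 0.0509 and 0.186). Wnt6 and Wnt10a are neighbours on chromosome 1, at 74754342 to 74785322 and 74792019 to 74804176 (GRCm38.p6), 6.7 kb apart. Wnt6 differed by 0.99 in KO/Kd and -0.16 in +/+ cells, and Wnt10a by 0.09 and 1.31.

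**Figure D2:**
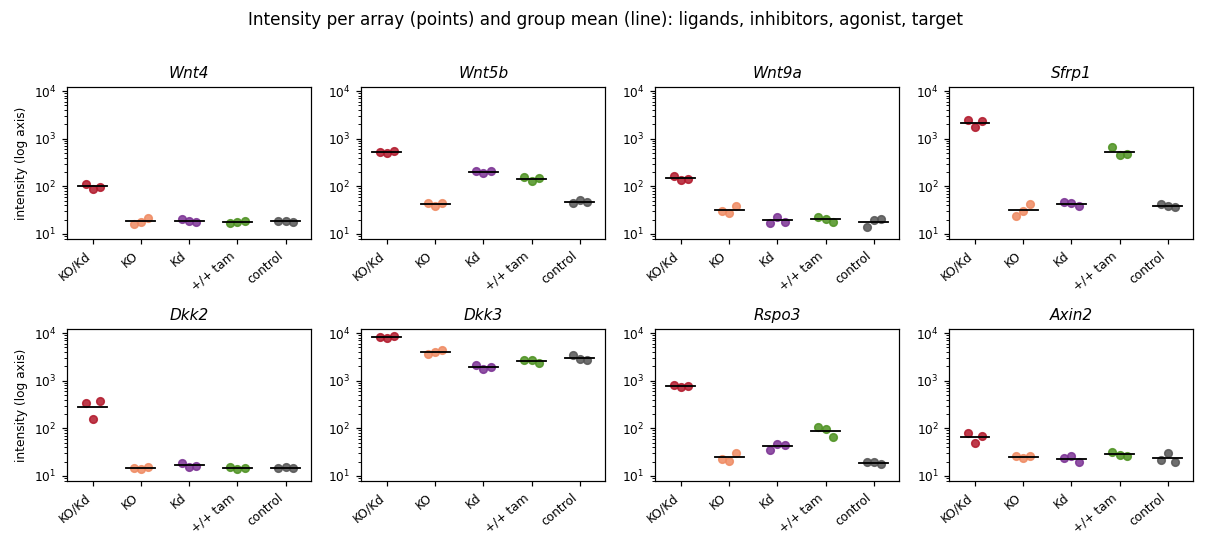
Intensity of 3 ligands, 3 inhibitors, Rspo3 and Axin2 on each array (points; log axis) with the group mean (line) in KO/Kd, KO, Kd, +/+ and control cells. KO/Kd arrays lie above all others in each panel, and Wnt5b, Sfrp1 and Rspo3 also have +/+ arrays above the control arrays.

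Among 8 tested secreted inhibitors 6 rose in KO/Kd cells and 0 fell, or 4 and 0 of 6 without Sfrp2 and Dkk2, while 46.2% of all genes rose and 19.3% fell. Sfrp1, a Wnt-binding inhibitor, had intensities of 2486, 1740.2 and 2304 in KO/Kd, 23.8, 30.5 and 42.5 in KO and 47, 44.5 and 38.3 in Kd cells. In +/+ cells it was at 653, 456 and 483, against 41.7, 39.2 and 36.4 in control cells. KO/Kd arrays were highest, +/+ arrays next, and KO, Kd and control arrays overlapped. The log2 fold change against control was 5.30 ± 0.15 in KO/Kd (adjusted p = 6.21e-14) and 3.29 ± 0.15 in +/+ cells (adjusted p = 2.39e-10). The 4 further Sfrp1 probe sets were higher in both groups too, by 0.77 to 4.61 in KO/Kd and 0.26 to 2.65 in +/+ cells. KO cells, with the same tamoxifen, were lower than +/+ cells (log2 fold change -3.50 ± 0.15, adjusted p = 8.67e-11), and KO/Kd cells exceeded +/+ cells by 2.01 ± 0.15 (adjusted p = 8.21e-09). The related Sfrp4, above the percentile on all 15 arrays, was at 35.1, 34.8 and 44 in KO/Kd cells and 22.4 to 28.7 elsewhere, and rose by 0.38 ± 0.08 (adjusted p = 0.000383). Sfrp2 was at 32.9, 49.6 and 30.7 in KO/Kd cells and at 10.2 to 16.8 on the 12 other arrays, below the percentile on each of those.

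Dkk2, which binds Lrp5 and Lrp6, was at 337, 155 and 367 in KO/Kd cells and at 14.1 to 18.9 on the 12 other arrays. It exceeded the percentile on the 3 KO/Kd arrays and on 0 others, and KO/Kd replicate 2 was below its fellow arrays. Dkk3, a divergent relative with debated effects on Wnt signalling, was at 8088, 8011 and 8480.0 in KO/Kd, 3647, 4067 and 4387 in KO and 2120.5, 1732 and 1894 in Kd cells. In +/+ cells it was at 2709, 2774 and 2326, against 3405, 2897 and 2748 in control cells. It thus moved in opposite directions with the single perturbations, with 0.42 ± 0.10 in KO (adjusted p = 0.00599; 0.0929 with arrayWeights) and -0.65 ± 0.10 in Kd cells (adjusted p = 0.000374). In KO/Kd cells it rose by 1.44 ± 0.10 (adjusted p = 2.1e-09). A further Dkk3 probe set differed by 0.33, -0.68 and 1.41 in the same comparisons. Wif1 was at 17.1, 24.9 and 19.9 in KO/Kd, 18.1, 20.9 and 29.7 in KO and 45.5, 41.9 and 26.8 in Kd cells, against 34.7, 22.2 and 28.6 in control cells, and did not pass against control (-0.28, adjusted p = 0.0944 in KO/Kd), although it passed after quantile normalization (-0.43, adjusted p = 0.0136). Against Kd cells it fell by 0.55 in KO/Kd cells. Frzb, at 24.5, 21.5 and 32.6 in KO/Kd, 15.6 to 24.2 in KO, Kd and +/+, and 19, 17.6 and 22 in control cells, rose by 0.24 ± 0.09 (adjusted p = 0.0344). That call ended after quantile normalization (adjusted p = 0.36) and without control replicate 1, control replicate 2 and KO/Kd replicate 3 (adjusted p = 0.0808, 0.116 and 0.213).

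R-spondins enhance Wnt signalling through Lgr receptors. Rspo3, needed for blood vessel formation in the mouse placenta, was at 805, 729 and 778 in KO/Kd, 22.3, 20.3 and 30.7 in KO and 34.6, 46.9 and 44.6 in Kd cells. It was at 107, 94.9 and 65.5 in +/+ cells, against 19.4, 19.1 and 18.2 in control cells. KO/Kd arrays lay above all others, and Kd and +/+ arrays above KO and control. The fold changes against control were 4.49 ± 0.13 in KO/Kd (adjusted p = 6.21e-14), 0.73 ± 0.13 in Kd (adjusted p = 0.00134) and 1.57 ± 0.13 in +/+ cells (adjusted p = 2.1e-07). Rspo2, required for limb and lung growth in the mouse, was at 4701, 5227 and 5358 in KO/Kd, 4649, 4796 and 4874 in KO and 6622, 6158 and 6242 in Kd cells. In +/+ cells it was at 3844, 3901 and 3838, against 4976, 5055 and 4825 in control cells. It rose in Kd (0.36, adjusted p = 0.00138) and fell in +/+ cells (-0.36, adjusted p = 0.000525), with non-overlapping arrays in both comparisons (both calls ended when all Rspo2 probe sets were averaged, adjusted p = 0.0923 and 0.11), and differed by 0.04 in KO/Kd cells (95% interval -0.10 to 0.17; -0.18 and adjusted p = 0.00649 after quantile normalization). Rspo1 lay near the filter, at 22.7, 22.7 and 24.9 in KO/Kd, 13.3, 14.6 and 18.6 in KO and 13.3, 12.3 and 12.3 in Kd cells, against 24.8, 21.3 and 19.2 in control cells. It fell in KO (-0.26, adjusted p = 0.0215) and in Kd cells (-0.40, adjusted p = 0.00291). The KO call ended with arrayWeights and without control replicate 1, KO replicate 1 and KO replicate 2 (adjusted p = 0.105, 0.0605 and 0.0752).

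Axin2, the feedback target of β-catenin, was at 81.4, 48.6 and 70.4 in KO/Kd cells and at 19.3 to 31.5 on the other arrays. It rose by 1.05 ± 0.13 against control (adjusted p = 1.95e-06), and KO (0.06, 95% interval -0.21 to 0.33) and Kd cells (-0.02, -0.29 to 0.25) did not pass. A further Axin2 probe set exceeded the 40th percentile on 0 of 15 arrays.

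Among 14 tested receptors and co-receptors 7 rose and 2 fell in KO/Kd cells, 2 rose and 3 fell in KO cells, and 6 rose and 0 fell in Kd cells, each against control. In KO/Kd cells these were 50% and 14.3%, against 46.2% and 19.3% of all genes. In KO cells they were 14.3% and 21.4%, against 19.6% and 4.66%, and in Kd cells 42.9% and 0%, against 7.55% and 3.04%. Fzd1, a Frizzled that couples to β-catenin, was at 4888, 4316 and 4868 in KO/Kd, 1347, 1456 and 1578 in KO and 2189, 2095 and 1942 in Kd cells. It was at 2085, 2032 and 1929 in +/+ cells, against 1806, 1605 and 1474 in control cells. KO/Kd arrays lay above all others (1.52 ± 0.09, adjusted p = 1.91e-10). The rises in Kd (0.35, adjusted p = 0.0143) and +/+ cells (0.31, adjusted p = 0.0132) were smaller, and both ended with all probe sets averaged (adjusted p = 0.116 and 0.0728); the Kd call also ended without control replicate 3, Kd replicate 1 and Kd replicate 2 (adjusted p = 0.081, 0.0716 and 0.0525), and the +/+ call without +/+ replicate 1 and control replicate 3 (adjusted p = 0.054 and 0.0774). Fzd4, the receptor of Norrin as well as of Wnts, was at 226, 284 and 214 in KO/Kd, 89.6, 80 and 112 in KO and 182, 145 and 132 in Kd cells. In +/+ cells it was at 71.3, 75.4 and 62.8, against 128, 135 and 123 in control cells. It rose in KO/Kd (0.82 ± 0.12, adjusted p = 2.1e-05) and fell in +/+ cells (-0.76 ± 0.12, adjusted p = 0.000274). The fall in KO cells (-0.41, adjusted p = 0.0247) ended with arrayWeights and without control replicate 1, control replicate 2, KO replicate 1 and KO replicate 2 (adjusted p = 0.0593, 0.0763, 0.058 and 0.12).

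Fzd2, a receptor for Wnt5a among others, was at 2102, 1987 and 2012 in KO/Kd, 990.2, 1045 and 1224 in KO and 1366, 1245 and 1265 in Kd cells. It was at 1185, 1193 and 1144 in +/+ cells, against 1598, 1439 and 1456 in control cells. It rose in KO/Kd (0.44 ± 0.08, adjusted p = 0.000105) and fell in KO (-0.46 ± 0.08, adjusted p = 0.000453) and +/+ cells (-0.35, adjusted p = 0.00335). The other Fzd2 probe sets differed by 0.11 and 0.22 in KO/Kd, by -0.57 and -0.40 in KO and by -0.17 and -0.14 in +/+ cells, and the +/+ call ended with all probe sets averaged (-0.22, adjusted p = 0.0553). Fzd5 went the other way: it was at 589, 701 and 568 in KO/Kd, 1125, 1279 and 1396 in KO and 841, 807 and 771 in Kd cells, against 799.6, 852 and 943 in control cells. KO arrays lay above and KO/Kd arrays below all control arrays, with 0.54 ± 0.10 (adjusted p = 0.000718) and -0.47 ± 0.10 (adjusted p = 0.000372). Against +/+ cells, at 743, 851 and 772, KO cells were higher by 0.67 ± 0.10 (adjusted p = 7.73e-05). Fzd6, a polarity receptor of skin and hair, was higher in both groups with the knockdown, at 1451, 1268 and 1529.7 in KO/Kd and 1586, 1545 and 1676 in Kd cells. The level was 661, 651 and 855 in KO and 673, 658 and 749 in +/+ cells, against 712, 717 and 653 in control cells. It rose by 1.01 ± 0.10 in KO/Kd (adjusted p = 1.54e-07) and 1.19 ± 0.10 in Kd cells (adjusted p = 6.79e-07). A dimmer Fzd6 probe set, above the percentile on all 15 arrays, differed by 1.43 in KO/Kd and 1.60 in Kd cells. It was also higher in KO (0.44) and +/+ cells (0.48).

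Fzd7, a Frizzled of stem and mesenchymal cells, was at 1529, 1633 and 1687 in KO/Kd, 1249, 1521 and 1527 in KO and 1390.2, 1372 and 1275 in Kd cells, with 1140.1, 998 and 1136 in +/+ and 936, 1061 and 1028 in control cells. It rose in KO/Kd (0.67, adjusted p = 3.59e-06), KO (0.50, adjusted p = 0.00064) and Kd cells (0.41, adjusted p = 0.00521). A dimmer Fzd7 probe set differed by 0.07, 0.15 and 0.25. Fzd8 was at 581, 609 and 683 in Kd cells, 442 to 598 in KO/Kd, KO and +/+, and 438, 501 and 509 in control cells, and its rise in Kd cells (0.36, adjusted p = 0.04) held in 6 of 16 alternatives; it ended when any of the 6 arrays was left out, without control replicate 1, control replicate 2, control replicate 3, Kd replicate 1, Kd replicate 2 and Kd replicate 3 (adjusted p = 0.165, 0.0702, 0.0615, 0.0541, 0.0855 and 0.162).

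The co-receptors and the kinases moved less uniformly. Ror1, a Wnt5a receptor with a tyrosine kinase-like domain, was at 290.2, 252 and 289 in KO/Kd, 108, 109 and 153 in KO and 423, 388 and 345 in Kd cells. It was at 481, 437 and 388 in +/+ cells, against 188, 203 and 190.0 in control cells. KO arrays lay below and KO/Kd, Kd and +/+ arrays above all control arrays. The fold changes were 0.48 ± 0.12 in KO/Kd (adjusted p = 0.00157; 0.20 and adjusted p = 0.0731 after quantile normalization), -0.61 ± 0.12 in KO (adjusted p = 0.00116), 0.93 ± 0.12 in Kd (adjusted p = 4.65e-05) and 1.10 ± 0.12 in +/+ cells (adjusted p = 3.22e-06). With all Ror1 probe sets averaged the KO call ended (-0.22, adjusted p = 0.0916); the other, dimmer probe sets differed by -0.01 and -0.03 in KO cells. Its relative Ror2, at 349.8 to 544 over all arrays, did not pass in KO/Kd cells (0.24, 95% interval 0.01 to 0.47). Lrp6, the main co-receptor for β-catenin signalling, was at 1531, 2032 and 1416 in KO/Kd and 1162, 1251 and 1270.0 in control cells, a rise of 0.41 ± 0.11 (adjusted p = 0.00341). The rise was 0.21 after quantile normalization (adjusted p = 0.07) and 0.08 with both probe sets averaged (adjusted p = 0.573), and the other Lrp6 probe set differed by -0.26, the opposite direction. Lrp5, at 17.3, 19.9 and 17.6 in KO/Kd, 16.4 to 28.9 in KO, Kd and +/+, and 38, 22 and 23 in control cells, fell by 0.33 (adjusted p = 0.0216), a call that ended without control replicate 1, KO/Kd replicate 1 and KO/Kd replicate 3 (adjusted p = 0.152, 0.0587 and 0.0526). Ryk, a kinase-related Wnt receptor at 3039.7, 2955 and 2801 in KO/Kd, 2468, 2714 and 3131 in KO, 3385, 3418 and 3262 in Kd and 2857, 2839.7 and 2671 in control cells, passed in Kd cells with 0.27 (adjusted p = 0.049), which held in 5 of 16 alternatives and ended without control replicate 1, control replicate 2, control replicate 3, Kd replicate 1, Kd replicate 2 and Kd replicate 3 (adjusted p = 0.087, 0.0954, 0.165, 0.134, 0.144 and 0.0851). In +/+ cells, at 3547, 3109.6 and 3423, it passed with 0.27 (adjusted p = 0.023), a call that ended after quantile normalization and without +/+ replicate 1, +/+ replicate 3 and control replicate 3 (adjusted p = 0.0991, 0.0645 and 0.0901).

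**Figure D3:**
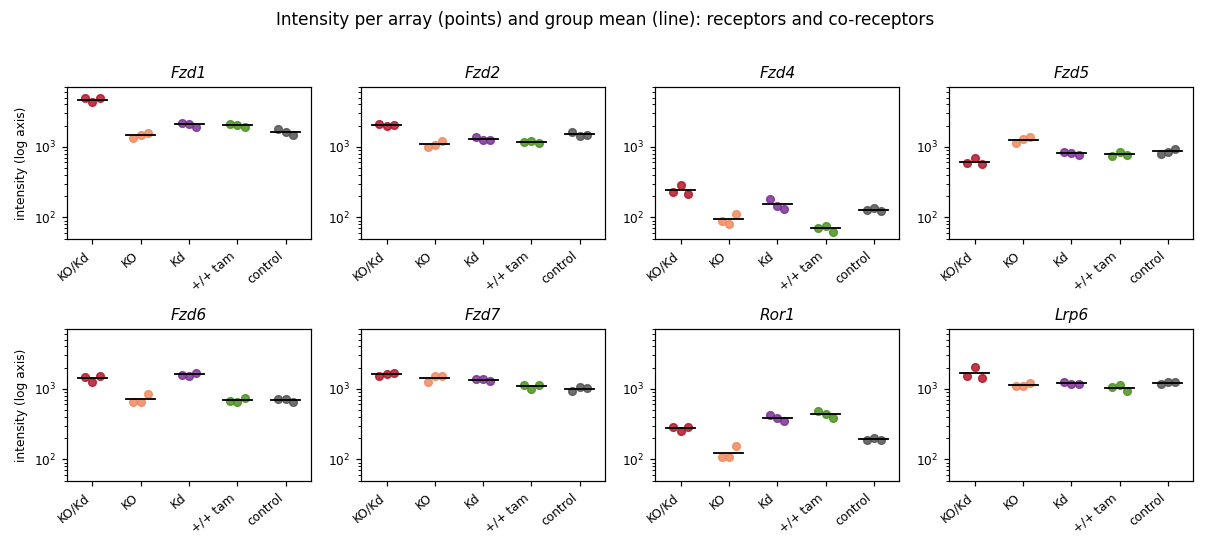
Intensity of 6 Frizzled genes, Ror1 and Lrp6 on each array (points; log axis) with the group mean (line) in KO/Kd, KO, Kd, +/+ and control cells. Fzd1 is highest in KO/Kd cells, Fzd5 in KO cells, Fzd6 in KO/Kd and Kd cells and Ror1 in Kd and +/+ cells.

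The design also asks whether deletion of Hdac1 acted differently in knockdown and in scrambled cells. With deletion within knockdown cells (KO/Kd against Kd) 22 members were higher and 6 lower (42.9% and 20.5% of all genes, 63.4% changed). Without Wnt4, Sfrp2 and Dkk2 these were 19 and 6 of 34. With deletion in scrambled cells (KO against control) 4 were higher and 4 lower. Both comparisons, and the interaction below, set tamoxifen against ethanol as well as deleted against intact Hdac1. These cannot be told apart. With knockdown added to deletion (KO/Kd against KO) 21 were higher and 1 lower (36.2% and 20.6% of all genes, 56.8% changed). Leaving out the same 3 genes gave 18 and 1 of 34. The interaction, KO/Kd against Kd minus KO against control, passed for 20 of 37 tested members, 18 above 0 and 2 below (48.6% and 5.41%), and for 42.9% of all genes, 25.8% above 0 and 17.2% below. Without Wnt4, Sfrp2 and Dkk2 it passed for 17 of 34, 15 above 0 and 2 below (44.1% and 5.88%), and the median was 0.26, against 0.06 for all genes. After quantile normalization 17 of the 37 were above 0 and 6 below, and 24.2% and 25.8% of all genes. Sfrp1 changed by 5.20 ± 0.15 with deletion in knockdown cells and by -0.21 ± 0.15 in scrambled cells, an interaction of 5.40 ± 0.22 (adjusted p = 2.21e-11). For Rspo3 the pair of effects was 3.77 and 0.20, for Wnt9a 2.23 and 0.51, and for Dkk3 2.09 and 0.42. Deletion went in opposite directions for Fzd2 (0.65 and -0.46), Fzd4 (0.61 and -0.41) and Fzd5 (-0.38 and 0.54), with interactions of 1.11, 1.01 and -0.92. The other Fzd2 probe sets rose less in knockdown cells (0.11 and 0.29, with -0.57 and -0.40 in scrambled cells) and gave interactions of 0.69 and 0.69. Those of Fzd4 gave 1.23 and 0.38, and a dim Fzd5 probe set gave -0.06. The interaction of Fzd6 did not pass (-0.23, 95% interval -0.52 to 0.07), but passed with all probe sets averaged (-0.42, adjusted p = 0.0491). That of Lrp6 (0.56) ended with both probe sets averaged (0.31, adjusted p = 0.145), and that of Wnt16 (0.56) after quantile normalization (0.39, adjusted p = 0.0969). By role and without those 3 genes, 5 of 10 ligands, 3 of 6 inhibitors and 5 of 14 receptors passed, with medians of 0.42, 0.39 and 0.04; whether the roles differ was not tested.

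**Figure D4:**
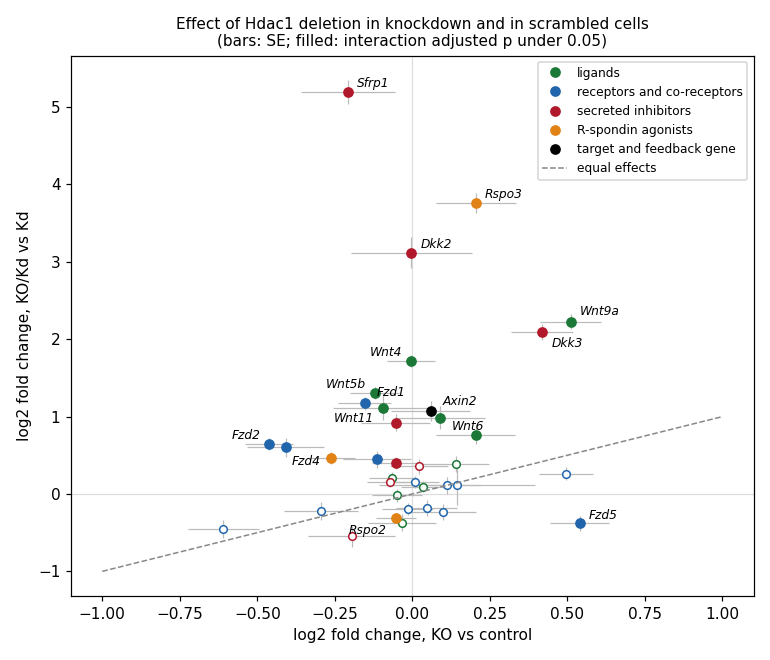
Log2 fold change with Hdac1 deletion in knockdown cells (KO/Kd against Kd, y axis) and in scrambled cells (KO against control, x axis). The 37 tested members are shown with SE bars and colours by role, and tamoxifen went with deletion on both axes. Filled points passed the interaction test; Sfrp1 (5.20 and -0.21) and Rspo3 (3.77 and 0.20) lie far above the dashed line of equal effects.

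Because KO and KO/Kd cells had received tamoxifen and control cells had not, both were also set against the +/+ cells with tamoxifen. KO/Kd cells had 21 higher and 5 lower members in that comparison (38.3% and 23.5% of all genes, 61.8% changed). Over the 34 members without Wnt4, Sfrp2 and Dkk2 these were 18 and 5. Wnt4, Sfrp2 and Dkk2 left aside, 15 members rose in KO/Kd cells against control, Kd and KO cells alike, and 14 of them also rose against +/+ cells and passed in the interaction; Wnt2 did neither. Of the 14, 7 did not pass in KO or in Kd cells against control: Wnt6, Wnt11, Wnt16, Lrp6, Sfrp1, Sfrp4 and Axin2. The share of all genes that met these joint rules was not computed, so the counts set no members apart. Taken singly, 46.2%, 42.9%, 36.2% and 38.3% of all genes rose in KO/Kd cells against control, Kd, KO and +/+ cells. The interaction was above 0 and passed for 25.8%. With both probe sets averaged Lrp6 lost its calls against control (adjusted p = 0.573), Kd (0.444) and +/+ cells (0.063) as well as in the interaction, and its other probe set was lower in KO/Kd cells in these 3 comparisons (-0.26, -0.24 and -0.15). KO cells had 6 higher and 8 lower members than +/+ cells (12.8% and 11.3% of all genes, 24.1% changed). Lower ones included Sfrp1, Wnt5b (-1.46 ± 0.08), Rspo3 (-1.36 ± 0.13), Wnt10a and Ror1 (-1.71 ± 0.12). Higher ones included Fzd5, Dkk3 (0.63 ± 0.10) and Wnt9a (0.41 ± 0.10). The +/+ cells differed from control in genotype, in treatment and possibly in the viruses they carried, and these cannot be told apart. KO and +/+ cells shared tamoxifen, but they too differed in genotype and possibly in viruses.

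Other genes of the pathway were counted in 5 lists with 99 genes, of which 85 were tested (12 were too dim, Wnt1 and Sp5 among them, and Kremen2 and Tcf7 were not analysed here). In KO/Kd cells 55 rose and 6 fell against control (64.7% and 7.06%), while 46.2% of all genes rose and 19.3% fell. In either direction 71.8% changed, and 65.5% of all genes. After quantile normalization 33 rose and 19 fell, while 32.3% of all genes rose and 33.4% fell. Regulators of Wnt secretion and of the cell surface had 9 higher and 1 lower of 15. Wls, the carrier that takes Wnts to the surface, was at 11361 ± 1098 in KO/Kd and 4575 ± 51.3 in control cells (mean ± SD, n = 3; log2 fold change 1.30 ± 0.07, SE), Ptk7 rose by 1.53 and the glypican Gpc4 by 1.38. Lgr4, a receptor of R-spondins, was at 678 ± 104 in KO/Kd, 2023 ± 144 in KO, 713 ± 33 in Kd and 933 ± 40.7 in +/+ cells, against 1964 ± 9.35 in control cells, and fell in KO/Kd (-1.52), Kd (-1.44) and +/+ cells (-1.06). Among 27 cytoplasmic and nuclear transducers 20 rose and 1 fell, with Tle1, a corepressor of TCF factors, at 1.67, the β-catenin inhibitor Ctnnbip1 at 0.93 and Dvl1, which relays the Frizzled signal, at 0.87.

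The planar polarity and calcium branch had 12 higher and 1 lower of 22 in KO/Kd cells, and the polarity gene Prickle1 was at 903 ± 124 in KO/Kd, 74.4 ± 23.5 in KO and 142 ± 24 in Kd cells, against 72.4 ± 13.6 in control cells (3.38 ± 0.18). Ankrd6 rose by 1.97, Prickle2 by 1.70 and the formin Daam2 by 1.57. The family genes outside the members had 3 higher of 5 tested, with Lrp4, which can bind Dkk1 and sclerostin, at 2.11 ± 0.11. Of 16 tested known targets of β-catenin 11 rose and 3 fell in KO/Kd cells (68.8% and 18.8%), while 46.2% of all genes rose and 19.3% fell. Bmp4, which encodes a bone morphogenetic protein, rose by 3.54 ± 0.13 and Ccn5 by 1.37, whereas Fosl1 (-1.94 ± 0.11), Myc (-0.87) and Cd44 (-0.51) fell. In KO cells the same 16 targets had 7 higher and 2 lower (43.8% and 12.5%, against 19.6% and 4.66% of all genes). In Kd cells these were 3 and 2 (18.8% and 12.5%, against 7.55% and 3.04%), and in +/+ cells 6 and 1 (37.5% and 6.25%, against 21.5% and 6.94%). Across the 5 lists 20 of 85 rose and 4 fell in KO cells (23.5% and 4.71%, against 19.6% and 4.66% of all genes). In Kd cells 9 rose and 6 fell (10.6% and 7.06%, against 7.55% and 3.04%), and in +/+ cells 23 and 5 (27.1% and 5.88%, against 21.5% and 6.94%). After quantile normalization these splits were 17 and 10, 10 and 10, and 16 and 12.

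**Figure D5:**
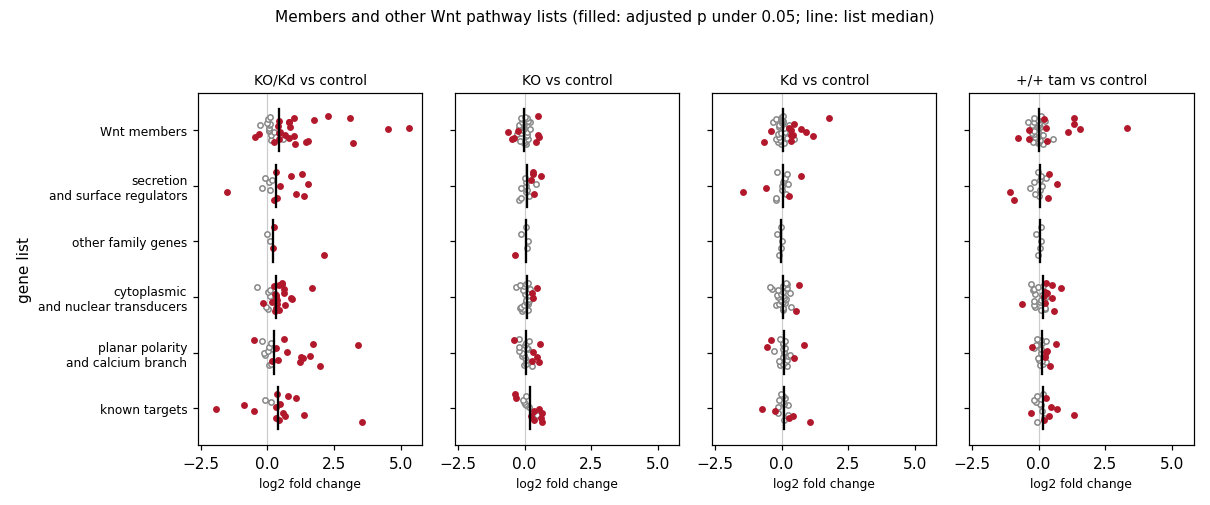
Log2 fold change (x axis) of each tested gene of the members and of 5 other Wnt pathway lists (y axis) in KO/Kd, KO, Kd and +/+ cells against control. Filled points passed the test and lines are list medians; in KO/Kd cells 55 of 85 pathway genes rose and 6 fell.

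Markers of other cell types also moved with KO/Kd cells. The summed intensity of 8 endothelial markers was 895 to 1072 in KO/Kd arrays and 204 to 516 in the 4 other groups, mostly through Flt1. Kdr was at 77.2 ± 21.5 in KO/Kd and 15.7 ± 4.02 in control cells. The 3 tested, Flt1, Kdr and Esam, rose in KO/Kd cells against control, while 46.2% of all genes rose. Pecam1, Cdh5, Tie1 and Emcn never exceeded the 40th percentile. The sum of 8 epithelial markers was 739 to 827 in KO/Kd arrays and 160 to 196 elsewhere, through the desmosomal Dsp (657, 658 and 582 in KO/Kd and 13.7 to 23.6 elsewhere), while Krt14 and Cldn4 never exceeded it. The sum of 9 pericyte and smooth muscle markers was 46072 to 47953 in KO/Kd arrays and 34525 to 42739 elsewhere, and was mostly Acta2. Of the 7 tested 6 rose in KO/Kd cells and Cspg4 fell (85.7% and 14.3%), while 46.2% of all genes rose and 19.3% fell. Notch3 was at 1961 ± 154 in KO/Kd and 25.9 ± 6.16 in control cells. Mcam was at 3512 ± 201 in KO/Kd and 477 ± 90.9 in control cells. Rgs5 was at 317 ± 63.4 in KO/Kd and 38.2 ± 2.66 in control cells. Abcc9 and Kcnj8 never exceeded the percentile. The sum of 8 neural markers was 7453 to 8728 in KO/Kd, 1755 to 2299 in KO, 5502 to 5967 in Kd and 4769 to 5364 in +/+ cells, against 2236 to 2517 in control cells. It was mostly Stmn2, Tubb3 and Map2, and Dcx never exceeded the percentile. Sox10 was at 29.9 ± 5.7 in KO/Kd and 25.5 ± 2.77 in control cells. In +/+ cells Tubb3 was lower than in control cells (367 ± 11.1 and 528 ± 21.2). Sox2 was higher there (502 ± 92.3 and 31.7 ± 1.76). The sum of 8 cartilage markers was 11700 to 14480 in KO/Kd, 10500 to 12996 in KO, 6822 to 7107 in Kd and 8135 to 9012 in +/+ cells, against 9820 to 10390 in control cells. It was mostly Col2a1, and other markers did not follow it. Acan was at 105 ± 22.3 in KO and 1268 ± 218 in +/+ cells, against 348 ± 48.6 in control cells. Of the 7 tested, 4 rose and 1 fell in KO/Kd, 0 and 1 in KO, 0 and 2 in Kd and 3 and 1 in +/+ cells. The KO/Kd shares were 57.1% and 14.3%, while 46.2% of all genes rose and 19.3% fell. The shares of all genes were 19.6% and 4.66% in KO, 7.55% and 3.04% in Kd and 21.5% and 6.94% in +/+ cells. The sum of 10 macrophage markers was 419 to 592 in KO/Kd and 365 to 680 elsewhere, with Ptprc, Itgam, Fcer1g and Tyrobp never above the percentile. The part of these genes in the results above was not tested.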

How the data were processed

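RNA from 15 samples was hybridised to Affymetrix Mouse 430v2 arrays, per the labels' protocols. The authors deposited 1 linear intensity per probe set and array; background correction, summarisation and scaling are not given in the sources used here. Of 45037 probe sets, 34945 named 1 gene symbol in the platform annotation. Each gene was represented by its probe set with the highest mean. Genes that exceeded the 40th percentile of intensity on 3 or more arrays were tested on log2(intensity + 16) with limma 3.58.1 in R 4.3.3, with all 15 arrays in 1 fit and Benjamini-Hochberg adjustment over 13375 genes (threshold 0.05); the method was tested on simulated data. The number of arrays limits the precision. Per-array values are given for members that passed against control or +/+ cells; of other pathway genes, up to 4 called genes per list with the largest changes are named, and Myc and Cd44 were chosen after their values were seen. Alternatives were quantile normalization, median centring, a 60th percentile filter, no filter, a pseudocount of 1, other probe set choices, arrayWeights, a replicate block, only the compared groups and leaving out each array. Members and lists were chosen with earlier results of these data known. Promoters came from RefSeq (GRCm38.p6).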

Additional observations from a re-analysis of the deposited data

Results flagged for a closer look

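The effect of Hdac1 deletion differed between knockdown and scrambled cells for 17 of 34 members, tested as an interaction (limma, adjusted p under 0.05). Values are the log2 difference with deletion in knockdown cells minus that in scrambled cells. Tamoxifen went with deletion in both, and the 2 cannot be told apart. Wnt4, Sfrp2 and Dkk2, left out of that count, are listed too and bring it to 20 of 37. Among ligands these were Wnt4 (1.72), Wnt9a (1.72), Wnt5b (1.43), Wnt11 (1.21), Wnt6 (0.90) and Wnt16 (0.56). Among inhibitors they were Sfrp1 (5.40), Dkk2 (3.12), Dkk3 (1.67), Sfrp2 (0.97) and Sfrp4 (0.45). Receptors and co-receptors gave Fzd1 (1.32), Fzd2 (1.11), Fzd4 (1.01), Lrp6 (0.56) and Fzd5 (-0.92). R-spondins gave Rspo3 (3.56), Rspo1 (0.72) and Rspo2 (-0.26), and Axin2 gave 1.01. The interaction passed for 42.9% of all genes. Wnt4, Dkk2 and Sfrp2 passed the filter only through KO/Kd arrays, so their values are no independent test. The Lrp6 call ended with both probe sets averaged (0.31, adjusted p = 0.145) and the Wnt16 call after quantile normalization (0.39, adjusted p = 0.0969). The Rspo2 call ended with arrayWeights (adjusted p = 0.0663), with all probe sets averaged (0.198) and without control replicate 3, KO replicate 2, Kd replicate 1 and KO/Kd replicate 1 (adjusted p = 0.0611, 0.0507, 0.0709 and 0.0804). With groups of 3 arrays, no search for single outlying arrays was made.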

How the results depend on the processing

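Of the counts of called genes, 7 moved by over 1.5 times. With arrayWeights, whose iterations stopped before convergence, 5 members (8 as reported) and 10 pathway genes (24) were called in KO against control, 26 pathway genes (15) in Kd against control and 16 (28) in KO against +/+ cells. With the 60th percentile filter, which tested 22 members, 15, 18 and 14 members were called in KO/Kd against control, Kd and KO cells (24, 28 and 22). Leaving out each array in turn gave 22 to 26 called members for KO/Kd against control, 26 to 27 against Kd, 21 to 25 against KO and 24 to 25 against +/+ cells. It gave 6 to 8 for KO, 8 to 10 for Kd and 8 to 10 for +/+ cells against control, 12 to 14 for KO against +/+ cells and 19 to 23 for the interaction. For the pathway lists the ranges were 54 to 58, 55 to 59, 47 to 53, 51 to 55, 19 to 23, 11 to 14, 19 to 26, 21 to 28 and 36 to 43 in the same order. Directions turned for Wnt5a (-0.20 after quantile normalization, -0.17 centred), Ryk (-0.16, quantile) and Rspo2 (-0.18, quantile; -0.13, centred) in KO/Kd against control. With all probe sets averaged they turned for Ryk against Kd (0.0607) and +/+ cells (0.00643) and for Fzd3 against +/+ cells (-0.27); the cause was not tested. After quantile normalization 20 members rose and 9 fell in KO/Kd against Kd, and 35 and 17 pathway genes (50 and 9 as reported). Against KO cells these were 36 and 15 (44 and 7). Same-numbered arrays did not deviate together (correlations -0.16 to 0.14, median -0.01, 30 pairs). With 3 arrays a group this cannot settle whether same-numbered samples shared a culture, and the main fit used no pairing. With the replicate block 24, 27, 23 and 26 members were called in KO/Kd against control, Kd, KO and +/+ cells, 8 in KO, 11 in Kd and 10 in +/+ against control, 13 in KO against +/+ and 21 in the interaction. Genes near the 40th percentile are limited by signal over background.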

Other observations

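Of the 40 members, 27 had more than 1 probe set. Those of Ryk differed by 0.07, 0.27 and 0.38 in KO/Kd against control cells. The Fzd3 probe sets above the percentile on all arrays differed by 0.56, 0.25 and 0.26.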
